A study of Mus musculus with 24 samples.

Results

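RNA carried by extracellular vesicles (EVs) was compared with RNA of the cells that released them, in cultures of BV2 given lipopolysaccharide (LPS). The members are the 6 libraries whose columns carry the names LPS EVs and LPS cells, 3 of each, of 24 libraries in the series. BV2 is an immortalised mouse microglial line, so all libraries come from 1 line. LPS, a component of the outer membrane of Gram-negative bacteria that is sensed through TLR4, was given at 100 ng/mL for 72 h. The control pair used below, 3 libraries of cells and 3 of EVs, is labelled as control at 72 h, with none of the agents named. The series also holds cells and EVs of cultures given IL-10 or TGF-β, each at 50 ng/mL for 72 h, with 3 libraries per group. These enter below where all 24 libraries or these groups are named. Column names give the group but not which labelled sample a column belongs to, and nothing states that the 3 libraries of a group came from separate cultures. The p-values therefore measure no more than how these libraries vary, which may be technical.

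EVs are membrane particles that cells shed from the plasma membrane or release from multivesicular endosomes. They enclose cytosol with its RNA and proteins, and tetraspanins such as CD63, CD9 and CD81 and the ESCRT machinery that buds vesicles into endosomes are widely used to describe them. Microglia are the resident macrophages of the brain, and after LPS they make cytokines, chemokines, nitric oxide synthase and acute-phase proteins. Total RNA of both compartments was made into cDNA with a kit that primes on poly(A) tails and does not mark strand.

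The LPS cell libraries held 42.13, 28.65 and 32.77 M (mega) counts and the LPS EV libraries 4.37, 3.02 and 6.28 M. A gene with no count could thus be present at up to 0.0768 to 0.116 CPM (counts per M of library total, the total scaled by TMM factors) in a cell library and up to 0.442 to 0.765 CPM in an EV library, taking 3 counts as the limit that a count of 0 allows. These limits cover counting error only. Across genes, log2 CPM of LPS cell libraries correlated at r = 0.995 to 0.996, LPS EV libraries with each other at 0.767 to 0.855, and EV with cell libraries at 0.610 to 0.716, over 13290 listed genes that are not independent replicates.

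The following 3 features of the EV libraries bear on every result below. First, 401 listed genes had no count in any of the 3 LPS cell libraries, and the LPS EV libraries detected 395, 401 and 401 of them, holding 0.431%, 1.79% and 0.787% of their counts. The 9 EV libraries of the other groups detected 18 to 70 of these genes and the 9 other cell libraries 47 to 113. No listed gene has under 240 counts over the 24 libraries, so a gene silent in all cells could be listed only if EVs hold it. The second LPS EV library stands apart, with the largest share of counts in these genes, a TMM factor of 1.30 against 0.947 and 1.08, and 0.489% of listed genes at 0 counts. Second, LPS EVs held transcripts that LPS cells nearly lacked and cells of other treatments had: of 6 genes under 1 CPM in LPS cells and at 50 CPM or more in another cell group, all 6 were detected in each LPS EV library. Arg1, an enzyme of arginine breakdown, was at 59.5, 74.5 and 33.1 CPM of library total in LPS EVs against a mean of 0.229 in LPS cells and 273 in control cells. F13a1, a clotting factor subunit made by macrophages, was at 2.75, 245 and 133 CPM in LPS EVs and at 1.71, 0.558 and 0.916 in LPS cells. Lastly, the libraries labelled control EVs held LPS-response transcripts that control cells nearly lacked. Lcn2 was at 403, 42.3 and 229.9 CPM in them, against a mean of 0.0731 in control cells and 1813 in LPS cells. What part these features have in the results below was not tested.

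**Figure D1:**
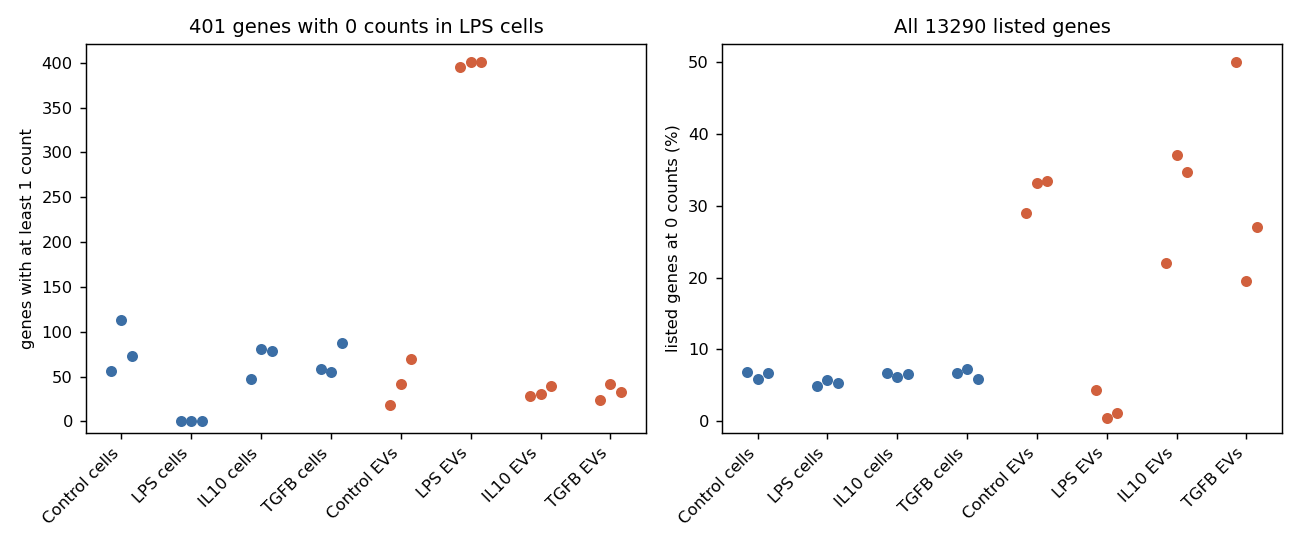
Left, number of the 401 genes without a count in LPS cells that have at least 1 count in each of the 24 libraries; right, percent of all 13290 listed genes at 0 counts in each library. Points are libraries, cells in blue and EVs in orange; the 3 LPS EV libraries lie at 395 to 401 genes, and the other EV libraries at 18 to 70.

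Between LPS EVs and LPS cells, 3320 of 13113 tested genes (25.3%) were higher in EVs and 1993 (15.2%) were lower (edgeR quasi-likelihood test, Benjamini-Hochberg adjusted p under 0.05). The groups did not overlap for 59.4% of the tested genes. The median log2 fold change over all genes was 0.13 with TMM scaling and 0.42 with scaling by library size, which called 3749 higher and 1341 lower, so calls near 0 depend on the scaling. With all 24 libraries in the fit, which share 1 estimate of the spread, 1854 were higher and 437 lower. When each LPS EV count was lowered by the median count of the genes silent in LPS cells, an alternative chosen after seeing the data, 1059 were higher and 3093 lower, of which 744 and 771 were also called without it. That median was 42, 126 and 118 counts in the 3 EV libraries. A gene with fewer EV counts was left with none, so lower calls of such genes follow from the subtraction.

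**Figure D2:**
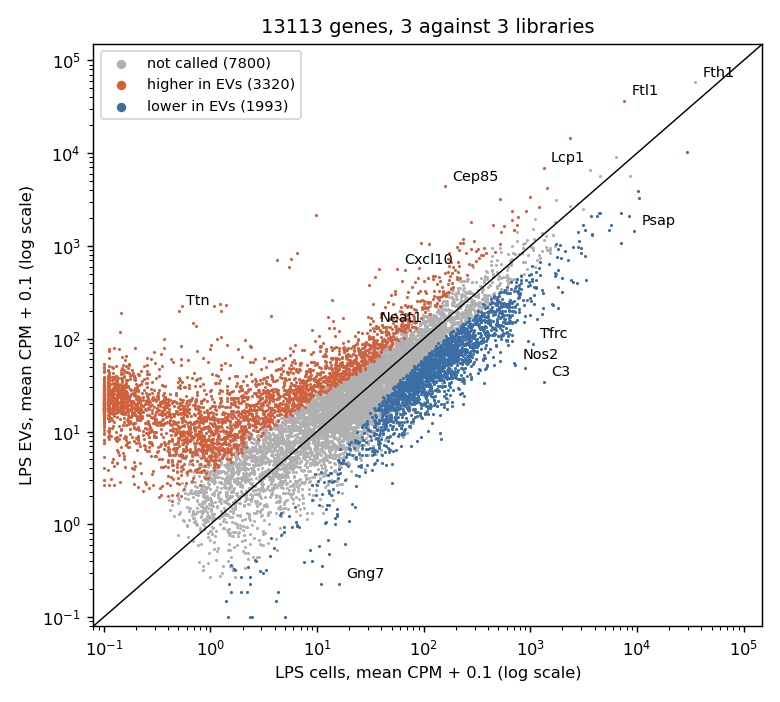
Mean CPM + 0.1 of each of the 13113 tested genes in LPS cells (x axis) and in LPS EVs (y axis), both on log scales, with the line of equal level. Genes with few counts in cells lie above the line, with median EV levels of 20.1, 13.9 and 8.48 CPM for genes at 0 counts, under 1 CPM and 1 to 10 CPM in cells, while most genes at high levels in cells lie at or below it.

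The direction of the calls followed the level of a gene in the cells. All 389 tested genes with no count in LPS cells were higher in EVs, at a median of 20.1 CPM, and a listed gene of this kind could hardly be otherwise. Of 1619 genes under 1 CPM in cells, 84.4% were higher and 0 lower. A gene this low could hardly be called lower, since a count of 0 allows up to 0.442 to 0.765 CPM in an EV library. With at least 240 counts needed over the 24 libraries, some of these genes could be listed only through libraries where they are high. At 1 to 10 CPM, 31.8% of 2773 genes were higher and 1.66% lower. At 10 to 100 CPM, 9.55% of 6045 were higher and 12.2% lower. Of 2287 genes at 100 CPM or more, 4.63% were higher and 52.8% lower, with a median log2 fold change of -0.89. Genes with some counts in cells but under 1 CPM held 0.0501% to 0.0544% of cell counts and 1.57%, 5.20% and 2.42% of EV counts, highest in the second library. Among the 8332 genes at 10 CPM or more in cells, 683 were higher, 1947 were lower and the median was -0.41, and this is given below as the second reference beside 0.13 for all genes. Refitting those genes alone, with a scaling of their own, gave 1125 higher and 893 lower.

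**Figure D3:**
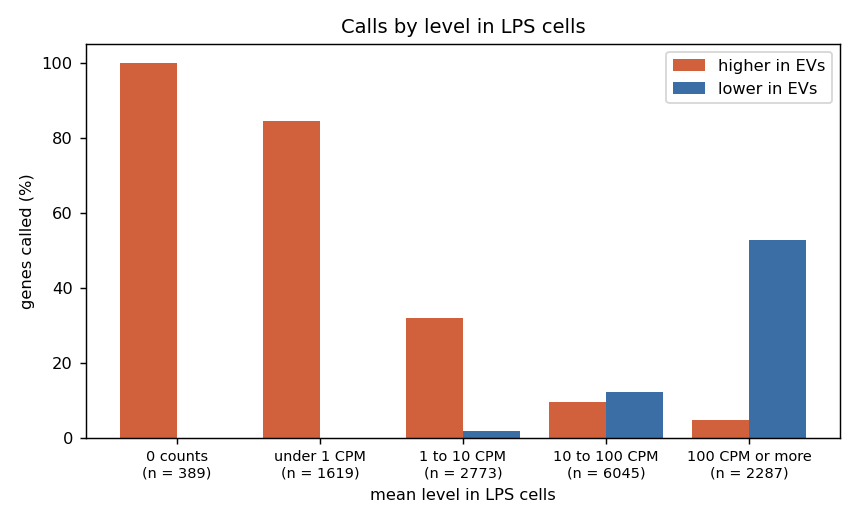
Percent of tested genes called higher (orange) or lower (blue) in LPS EVs, by mean CPM in LPS cells, with the number of genes in each class under the axis. The share called higher falls from 100% of genes with no count in cells to 4.63% at 100 CPM or more, where 52.8% were lower.

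Ferritin transcripts took the most counts in EVs. Ferritin stores iron in a shell of heavy (Fth1) and light (Ftl1) chains, and cells set its translation, and the stability of the transferrin receptor transcript Tfrc, through iron-responsive elements: hairpins in untranslated regions that bind iron regulatory proteins when iron is scarce. The hairpins found in 3 of these transcripts are printed because transcripts that share this element differed in direction. The 6 bases of the loop, CAGTGN, are in capitals. The 5 bases next to the loop on each side pair with each other, and pairing of the bases further out was not checked.
Fth1, 5′ untranslated region: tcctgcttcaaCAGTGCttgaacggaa
Ftl1, 5′ untranslated region: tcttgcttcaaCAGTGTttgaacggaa
Tfrc, 3′ untranslated region, first of 4: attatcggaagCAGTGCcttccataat
These were read from GENCODE M21 transcripts (GRCm38), genes on chromosomes 19, 7 and 16, by searching the sense strand for a C, 5 bases, the loop CAGTGN with a last base other than G, and 5 bases pairing with the first 5, with G-T pairs allowed. Such a match lay in the 5′ untranslated region of 0.155% and in the 3′ untranslated region of 0.618% of 11643 tested genes with a coding transcript. A match is a description of the letters, not a shown binding site.

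Ftl1 was at 7110.3, 7774 and 7951 CPM in the cell libraries and at 56389.5, 21432 and 32256 in the EV libraries, with no overlap. It rose, with a log2 fold change of 2.27 ± 0.37 SE (adjusted p = 0.00212). A near-identical copy, Ftl1-ps1, was also called higher (log2 fold change 2.22, adjusted p = 0.00092), and counts may be shared between them. Fth1 was at 34362, 35141 and 35250.1 CPM in cells and 84486, 37779 and 50852 in EVs. All 3 EV libraries lay above all cells, yet the log2 fold change of 0.72 ± 0.33 SE (adjusted p = 0.112) did not pass; it passed with library size scaling (0.95, adjusted p = 0.00865), with the second EV library left out (1.00, adjusted p = 0.0251), with DESeq2 (adjusted p = 0.0469), with limma-voom (adjusted p = 0.0123) and with all 24 libraries (adjusted p = 0.0351). Tfrc, which brings transferrin-bound iron into cells, fell, from 1202, 982 and 999 CPM in cells to 60.7, 137 and 66.2 in EVs (log2 fold change -3.59 ± 0.37 SE, adjusted p = 0.000577). Slc40a1, the iron exporter ferroportin, which also has a match in the 5′ region, was not called (log2 fold change -0.44 ± 0.23 SE, adjusted p = 0.157). All genes at 10 CPM or more in cells had 8.20% higher and 23.4% lower (median -0.41), and at 100 CPM or more 4.63% and 52.8%. In the list of iron storage and heme genes, 1 of 13 rose and 9 fell, with a median of -0.83. The list took 4.52% to 4.58% of cell counts and 13.5%, 7.88% and 9.17% of EV counts. Among those that fell were Hmox1, heme oxygenase (1829, 2019 and 2083 CPM in cells, 529, 379 and 433 in EVs), and Slc11a1, the divalent metal transporter of phagosomes (1038, 1188 and 1202 against 141, 131 and 218). The call of Slc11a1 was lost with all 24 libraries in the fit (adjusted p = 0.0974).

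Among all tested genes 25.3% were higher in EVs and 15.2% lower, and at 10 CPM or more in cells 8.20% and 23.4%. Of 87 tested transcripts of cytosolic ribosomal proteins, 57 were higher in EVs, 0 were lower and 30 were not called. Their median log2 fold change was 1.21. They took 2.42%, 2.54% and 2.54% of the counts of the cell libraries and 9.09%, 5.02% and 6.67% of those of the EV libraries, with the second EV library lowest. The count of higher members was 72 with library size scaling, 74 without the second EV library, 46 with all 24 libraries in the fit, and 25 without the first, 30 without the second and 31 without the third cell library, and 0 were lower in each. With the EV counts lowered 77 of 84 were higher and 3 lower. Rps19, a protein of the small subunit, was at 506, 548 and 516 CPM in cells and 5000.2, 1785 and 2938 in EVs (log2 fold change 2.63 ± 0.38 SE, adjusted p = 0.00121). Rps12 was at 81.0, 87.3 and 78.7 CPM in cells and 590.2, 269 and 375 in EVs (log2 fold change 2.32 ± 0.32 SE, adjusted p = 0.000957), and Rps28 at 154, 179.6 and 174 in cells and 1054, 454 and 673 in EVs (log2 fold change 2.10 ± 0.33 SE, adjusted p = 0.00163). Rps27 rose from 163, 179 and 179.8 to 1252, 475 and 787 CPM. Ribosomal protein genes have many processed copies in the genome, and reads may be split between them. Of 31 translation factors 5 were higher and 9 lower, with a median of -0.20; those that rose were Eef1b2, Eif3a, Eif5, Pabpc1 and Tpt1, and each of these 5 lost its call without the first cell library (adjusted p = 0.0571, 0.08, 0.114, 0.0772 and 0.105). Eif4g1, the scaffold of the cap-binding complex, fell from 591, 651 and 612 to 65.5, 108 and 81.7 CPM (log2 fold change -2.86 ± 0.26 SE, adjusted p = 0.000512), and Eif3b, a subunit of the factor that loads the small subunit, from 1186, 1364 and 1381 to 405, 286 and 247. For mitochondrial ribosomal proteins, 15 of 78 were higher and 8 lower, with a median of 0.10, and for nuclear subunits of oxidative phosphorylation 6 of 79 were higher and 7 lower, with a median of -0.01.

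**Figure D4:**
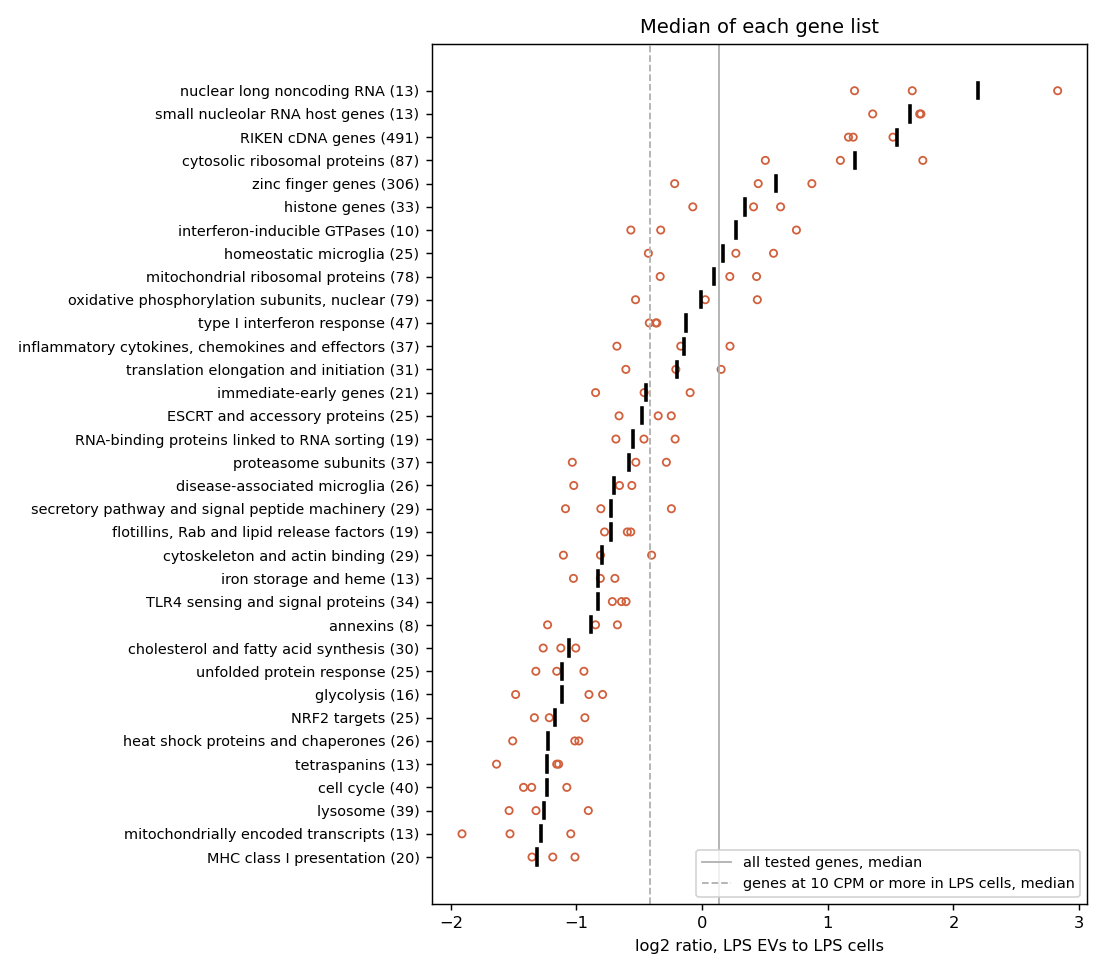
Median log2 ratio of LPS EVs to LPS cells for gene lists with at least 8 tested members, with the number tested in parentheses (marker lists of other cells, predicted gene models and olfactory receptors are not drawn); open points are the median in each EV library against the mean of the cells (0.5 CPM added), black bars the median of the fitted values. Solid and dashed lines mark the medians of all tested genes (0.13) and of genes at 10 CPM or more in cells (-0.41); ribosomal proteins lie to the right of both, lysosomal and MHC class I genes to the left.

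Other entries took a large share of EV counts. The third by mean level was CT010467.1, annotated as ribosomal RNA, at 1856, 2447 and 2827 CPM in cells and 12414, 10102 and 20777 in EVs (log2 fold change 2.60 ± 0.35 SE, adjusted p = 0.000886), with no overlap and the third EV library highest. Ribosomal RNA has many copies, so reads assigned to this entry are uncertain, and the part of RNA type or quality in the other results was not tested. Lcp1, the actin-bundling protein L-plastin of leukocytes, rose from 1409.9, 1302 and 1301 CPM in cells to 10115, 4170.2 and 6652 in EVs (log2 fold change 2.38 ± 0.34 SE, adjusted p = 0.0012). Cep85, a centrosomal protein, rose from 161, 149.6 and 162 to 6491, 2665 and 4047 CPM (log2 fold change 4.81 ± 0.38 SE, adjusted p = 0.000512). The EV libraries were far apart for both genes, with the first highest, but lay above all cell libraries. Among the 10 genes with the most counts in EVs, Gpnmb, a lysosomal glycoprotein of phagocytes, was lower than in cells (28134, 28658 and 30960.3 against 6801, 8447 and 15939.9 CPM), a call lost with all 24 libraries in the fit (adjusted p = 0.0623). Spp1, osteopontin, was at 6690.0, 5969.8 and 6464 CPM in cells and 7435, 8041 and 11510.5 in EVs and did not pass (log2 fold change 0.50 ± 0.25 SE, adjusted p = 0.147); it passed with library size scaling (0.78, adjusted p = 0.0252) and with the EV counts lowered (1.36, adjusted p = 0.0153). Apoe, the main lipid carrier protein of the brain, was at 3511, 3623 and 3689 in cells and 5290.4, 2655 and 11833 in EVs, with overlapping groups and the third EV library highest; it was called higher without the second EV library (1.27, adjusted p = 0.0243). Ctsk, a lysosomal cysteine protease, was at 8305, 8826 and 8667 CPM in cells and 5912, 4192 and 6942 in EVs (log2 fold change -0.60 ± 0.25 SE, adjusted p = 0.0936). The 10 genes with the most counts took 12.0% to 12.3% of counts in cells and 19.4%, 13.6% and 17.9% in EVs.

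Transcripts of the LPS response went both ways, as genes at their level in cells did. In the list of inflammatory cytokines, chemokines and effectors, 4 of 37 were higher in EVs and 10 lower, with a median of -0.14. Of its 31 members at 10 CPM or more in cells, 2 were higher and 10 lower (median -0.42). Of all genes at that level 8.20% were higher and 23.4% lower (median -0.41). The members that rose were Il6, Csf3, Cxcl9 and Cxcl10. Il6, a cytokine that drives the acute-phase response, was at 0.870, 0.658 and 0.917 CPM in cells and 4.59, 19.9 and 8.40 in EVs (log2 fold change 3.73 ± 0.73 SE, adjusted p = 0.00473). Il6 had fewer counts in each EV library than the 42, 126 and 118 taken off when EV counts were lowered. That setting left Il6 none, so its turn to the other side there (log2 fold change -6.83, adjusted p = 0.00756) was fixed by the subtraction. With all 24 libraries Il6 did not pass (adjusted p = 0.0922), nor did Csf3 (adjusted p = 0.693). Cxcl10, an interferon-induced chemokine that draws T cells, was at 49.6, 58.0 and 60.6 CPM in the LPS cell libraries and at 740.0, 371 and 566 in those of LPS EVs, all EV libraries far above all cells (log2 fold change 3.32 ± 0.31 SE, adjusted p = 0.000516). Cxcl10 lies within Art3 on the opposite strand in GENCODE M21, and reads of the 2 genes cannot be told apart without strand. Its call was lost with all 24 libraries in the fit (log2 fold change 3.29, adjusted p = 0.133). Il1b, the inflammasome cytokine, overlapped between the groups, at 563, 797 and 705 CPM in cells and 1159, 659.7 and 692 in EVs, and was not called (log2 fold change 0.28 ± 0.29 SE, adjusted p = 0.464). Ccl5 (198, 216 and 253 against 425, 177 and 253) and Saa3, an acute-phase protein (4287, 4496 and 4671 against 8566, 3327 and 4914), overlapped too and were not called. With the EV counts lowered, all 3 were called higher: Il1b (1.03, adjusted p = 0.0109), Ccl5 (0.97, adjusted p = 0.0135) and Saa3 (1.05, adjusted p = 0.0045).

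Other LPS-response transcripts fell. Nos2, inducible nitric oxide synthase, went from 539.9, 818 and 808 CPM in cells to 50.5, 70.4 and 35.7 in EVs (log2 fold change -3.79 ± 0.34 SE, adjusted p = 0.000512). C3, the central complement component, went from 1306, 1387 and 1308 to 10.4, 52.8 and 39.7 CPM (log2 fold change -5.28 ± 0.57 SE, adjusted p = 0.000595), with the first EV library lowest. Tnf was at 167, 212 and 218 CPM in cells and 29.2, 53.6 and 37.7 in EVs (log2 fold change -2.31 ± 0.29 SE, adjusted p = 0.000738). Lcn2, which binds bacterial siderophores, was at 1754, 2134 and 2102 in cells and 349, 241 and 377 in EVs (log2 fold change -2.63 ± 0.26 SE, adjusted p = 0.000541). Marco, a scavenger receptor, was at 1647, 1609 and 1639 CPM in cells and 336, 147 and 216 in EVs, and Acod1, which makes itaconate, at 3591, 3960.5 and 3795 in cells and 1848, 995 and 1181 in EVs (log2 fold change -1.50 ± 0.28 SE, adjusted p = 0.00388). None of these 6 genes, gathered because they fell, overlapped between groups, and neither did 59.4% of all tested genes. With all 24 libraries in the fit, the log2 fold changes kept their direction but 5 of the 6 did not pass, at adjusted p = 0.0726 for Nos2, 0.292 for Tnf, 0.197 for Lcn2, 0.167 for Marco and 0.631 for Acod1.

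**Figure D5:**
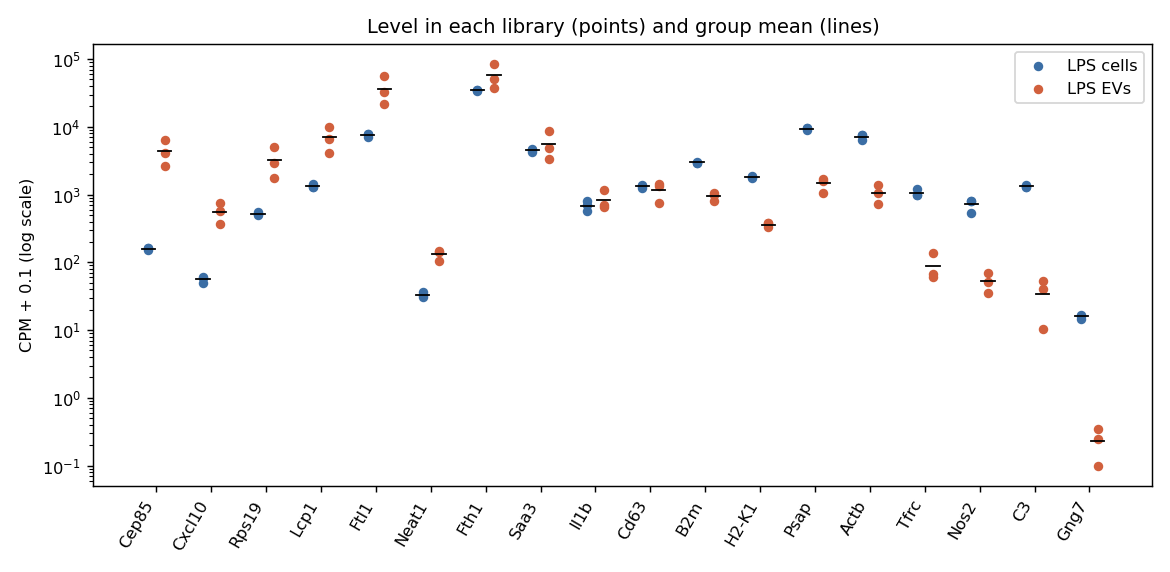
CPM + 0.1 on a log scale of 18 genes named in the text in each LPS cell library (blue) and LPS EV library (orange); lines mark group means. Ftl1, Lcp1, Cep85, Rps19, Neat1 and Cxcl10 lie higher in all EV libraries, Saa3, Il1b and Cd63 overlap, and Psap, Actb, Tfrc, Nos2, C3 and Gng7 lie lower.

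Of TLR4 sensing and signal genes, 2 of 34 were higher and 10 lower, with a median of -0.83. Nfkb2, a subunit of NF-kB, was at 162, 177 and 187 CPM in cells and 40.4, 39.5 and 54.2 in EVs, and Irak3, which dampens TLR signals, at 61.9, 63.1 and 57.8 in cells and 8.94, 12.2 and 11.6 in EVs. Neither passed with all 24 libraries in the fit (adjusted p = 0.162 and 0.285). For the type I interferon response, 8 of 47 were higher and 10 lower, with a median of -0.12, which was 0.18 with library size scaling. Of its 40 members at 10 CPM or more in cells, 4 were higher and 10 lower (median -0.37), near the 8.20% and 23.4% of all genes at that level (median -0.41). Oas3 and Oasl1, antiviral genes of the oligoadenylate synthetase family, fell from 294, 337 and 327 to 36.3, 54.1 and 38.0 CPM and from 509, 622 and 642 to 107, 93.6 and 148 CPM; neither passed with all 24 libraries (adjusted p = 0.102 and 0.312).

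Of 39 tested transcripts of lysosomal proteins, 30 were lower, 1 was higher and 8 were not called, with a median of -1.26. At 10 CPM or more in cells 23.4% of all genes were lower (median -0.41), and at 100 CPM or more 52.8% (median -0.89). The share of counts in the lysosomal list went from 5.07% to 5.30% in cells to 1.73%, 1.99% and 2.79% in EVs. The count of lower members was 17 with only genes at 10 CPM or more in cells refitted, 17 with all 24 libraries, 19 without the second or the third cell library and 11 with the EV counts lowered. The 1 member that rose was Atp6v0d2, a subunit of the proton pump (17.5, 11.7 and 14.0 against 35.5, 41.8 and 55.0 CPM). Psap, the precursor of the saposins that help break down sphingolipids, went from 9032, 9457 and 9565 CPM in cells to 1601, 1069 and 1717 in EVs (log2 fold change -2.68 ± 0.27 SE, adjusted p = 0.000541). Gaa, acid alpha-glucosidase, went from 647, 717 and 738 to 53.7, 51.5 and 58.2 CPM (log2 fold change -3.68 ± 0.22 SE, adjusted p = 0.000397). Ctsd, a lysosomal aspartic protease, was at 7669, 8812 and 8971 in cells and 1642, 1344 and 3263 in EVs, Ctsb at 6649.9, 7331 and 7179 in cells and 1335, 2615 and 2886 in EVs, and Lamp1, a lysosomal membrane protein, at 1997, 1713 and 1728 CPM in cells and 465, 498 and 673 in EVs.

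Of 20 MHC class I genes 0 were higher, 12 lower and 8 not called, with a median of -1.31. Beside this list and those that follow, 23.4% of all genes at 10 CPM or more in cells were lower (median -0.41). At 100 CPM or more the share was 52.8% (median -0.89). The heavy chain H2-K1 was at 1736, 1868 and 1849 CPM in cells and 329, 379 and 377 in EVs (log2 fold change -2.33 ± 0.21 SE, adjusted p = 0.000512), and B2m, the shared light chain, at 2948, 2949 and 3064 in cells and 970.3, 814 and 1068 in EVs (log2 fold change -1.65 ± 0.22 SE, adjusted p = 0.000805). H2-K1 and H2-D1 are close in sequence, and their reads may be shared. The count of lower members was 4 with all 24 libraries in the fit and 6 with the EV counts lowered. Of 26 chaperones and heat shock proteins, 0 were higher and 17 lower (median -1.23), among them Hspa5, the main chaperone of the endoplasmic reticulum (1735, 1762 and 1663 against 433, 410.0 and 674 CPM). Of 16 glycolysis genes, 0 were higher and 13 lower (median -1.12), among them Pkm, pyruvate kinase (3311, 4003 and 4004 against 1548, 947 and 1433). The count of lower glycolysis genes was 4 when genes at 10 CPM or more were refitted, 8 without the first and 6 without the second or the third cell library, and 9 of 17 with all 24 libraries. Gapdh, at 4012, 4736 and 4877 CPM in cells and 2718, 1675 and 2430.3 in EVs, lost its call in that refit (adjusted p = 0.0986).

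The lists that follow stand beside 23.4% lower among all genes at 10 CPM or more in cells (median -0.41). At 100 CPM or more 52.8% were lower (median -0.89). Of 40 cell cycle genes, 4 were higher and 23 lower (median -1.24), and with all 24 libraries in the fit 0 were higher and 6 lower. Without the second or the third cell library 14 were lower. Plk1, a mitotic kinase, was at 98.7, 117 and 115 CPM in cells and 17.6, 17.6 and 21.1 in EVs. In cholesterol and fatty acid synthesis, 1 of 30, Fdps, was higher and 12 lower (median -1.06). Fdps did not pass with all 24 libraries (adjusted p = 0.214). Of 25 genes of the unfolded protein response, 12 were lower and 1 was higher: Ddit3, the transcription factor CHOP, rose from 82.9, 92.8 and 89.0 to 608, 307 and 444 CPM (log2 fold change 2.36 ± 0.29 SE, adjusted p = 0.000694). The mitochondrially encoded transcripts had 0 of 13 higher and 7 lower (median -1.28), and took 0.359% to 0.405% of counts in cells and 0.177%, 0.143% and 0.229% in EVs. Among them mt-Co1, a subunit of cytochrome oxidase, went from 1375, 1281 and 1298 to 182, 191 and 274 CPM (log2 fold change -2.61 ± 0.25 SE, adjusted p = 0.000516).

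Of 29 cytoskeletal transcripts 1 was higher and 14 lower (median -0.80). All 29 were at 10 CPM or more in cells, where 23.4% of all genes were lower (median -0.41). At 100 CPM or more 52.8% of all genes were lower (median -0.89). Actb, cytoplasmic actin, fell from 6346, 7532 and 7543 CPM in cells to 1066, 732 and 1403 in EVs (log2 fold change -2.74 ± 0.30 SE, adjusted p = 0.000596), and Flna, which cross-links actin filaments, from 1229, 1619 and 1515 to 122, 91.1 and 172 (log2 fold change -3.50 ± 0.31 SE, adjusted p = 0.000512). The 1 member that rose was Lcp1, above. Gng7, a G protein gamma subunit, was at 16.2, 14.7 and 16.7 CPM in cells and 0.242, 0 and 0.147 in EVs (log2 fold change -6.82 ± 0.82 SE, adjusted p = 0.000625), on 2 counts over the 3 EV libraries. Rassf7 had no count in EVs and 5.15, 5.23 and 4.41 CPM in cells, at least 7.65-fold lower against a floor of 3 counts per library.

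Most transcripts of the proteins used to describe EVs were lower in the vesicles or not called, as were most tested genes. Of all tested genes 25.3% were higher and 15.2% lower, and of those at 10 CPM or more in cells 8.20% and 23.4%. Of 13 tetraspanins 1, Tspan8, was higher and 8 lower, with a median of -1.23; Tspan8 did not pass with all 24 libraries (adjusted p = 0.172). Cd63 was at 1269, 1368 and 1346 CPM in cells and 1413, 739.8 and 1347 in EVs and Cd9 at 517, 498 and 511 in cells and 312, 211 and 621 in EVs; both overlapped and neither was called. Cd9 was called lower without the third EV library (-0.96, adjusted p = 0.0278), and Cd63 higher with the EV counts lowered (0.55, adjusted p = 0.00803). Cd81 fell, from 293, 276 and 300.3 to 53.9, 63.8 and 139.7 CPM (log2 fold change -1.75 ± 0.37 SE, adjusted p = 0.00679). Of 25 ESCRT and accessory genes 1, Snf8, was higher and 5 lower. Their median of -0.48 was near the -0.41 of all genes at 10 CPM or more in cells. Snf8 lost its call without any 1 cell library (adjusted p = 0.115 to 0.144). Pdcd6ip, which encodes ALIX, was at 275, 259 and 259 CPM in cells and 30.5, 41.6 and 122 in EVs (log2 fold change -2.02 ± 0.49 SE, adjusted p = 0.0127), with the third EV library closest to the cells, and Tsg101 was at 78.1, 70.4 and 82.3 in cells and 71.5, 31.4 and 54.8 in EVs and not called, but was called lower without the first EV library (-0.83, adjusted p = 0.0374). With the EV counts lowered, Cd81 and Pdcd6ip did not pass (adjusted p = 0.095 and 0.176). Sdcbp, syntenin, was at 697, 599 and 623 in cells and 254, 257 and 424 in EVs, and Flot1, flotillin, at 135, 136 and 144 in cells and 91.4, 34.7 and 58.8 in EVs; both were called lower, and both lost the call when any cell library was left out. Of RNA-binding proteins linked to RNA sorting, 2 of 19 were higher and 6 lower (median -0.55), among them Mvp, the vault protein (249, 265 and 282 against 92.3, 88.8 and 77.1 CPM), which did not pass with all 24 libraries (adjusted p = 0.295).

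Of 13 long noncoding RNAs that are known to stay in the nucleus, 7 were higher, 0 lower and 6 not called, with a median of 2.19. Only 3 of the 13 were at 10 CPM or more in cells, and 2 of these were higher. Among all genes 84.4% were higher under 1 CPM in cells, 31.8% at 1 to 10 CPM and 8.20% at 10 CPM or more. Neat1, the scaffold of paraspeckles, was at 32.7, 36.0 and 30.9 CPM in cells and 147, 142 and 106 in EVs (log2 fold change 1.99 ± 0.25 SE, adjusted p = 0.000689), and Malat1, of nuclear speckles, at 49.3, 26.9 and 30.8 in cells and 138, 99.0 and 179 in EVs (log2 fold change 1.96 ± 0.34 SE, adjusted p = 0.00275). Kcnq1ot1, an imprinted antisense RNA, was at 0.768, 1.43 and 0.543 CPM in cells and 71.1, 135 and 48.6 in EVs. Rian and Meg3, from an imprinted cluster, were near 0 in all cell groups, so they could be listed only through EV libraries. With the EV counts lowered, 4 of 11 were higher and 4 lower. Of 912 predicted gene models 583 were higher and 10 lower (median 3.50), beside 25.3% and 15.2% of all tested genes. With no count in cells, 106 of the 912 could hardly be called otherwise than higher. The 43 at 10 CPM or more in cells had 8 higher and 6 lower (median -0.10). With the EV counts lowered 62 of 434 gene models were higher and 272 lower. By annotated class, 61.3% of 194 antisense genes, 57.0% of 330 lincRNAs and 20.9% of 11638 coding genes were higher. The median cell level was 0.744 CPM for antisense genes and 28.4 CPM for coding genes, so class and cell level moved together.

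The 10 largest rises among named genes were all in genes with no count in LPS cells. Stox2 was at 19.8, 88.0 and 53.5 CPM in EVs, at least 547-fold higher against a floor of 3 counts per cell library, and Foxp2, a transcription factor of brain and lung, at 22.0, 86.2 and 35.1, at least 486-fold. Kcna2, a potassium channel of neurons, was at 33.6, 60.2 and 20.3 CPM, at least 387-fold, and Grik1, a kainate receptor subunit, at 15.7, 71.7 and 26.8. The second EV library was highest for each of these 4 genes. Markers of cells other than microglia are given as levels only, since a marker near 0 in cells could be listed and tested only through libraries where it is high. The summed level of the 11 listed of 20 neuron markers was 35.2 to 45.2 CPM of library total in cells and 102, 554 and 215.2 in EVs, and 5 of the 11 were at 0 in cells. The 5 listed of 14 muscle markers summed to 0.997 to 1.15 CPM in cells and 179, 802 and 287 in EVs, Ttn, the giant sarcomere protein, among them (109, 358 and 134 CPM in EVs). The 5 listed of 12 astrocyte markers summed to 225 to 239 CPM in cells and 92.0, 396 and 305.0 in EVs. Of 12 epithelial markers none is among the listed genes. The part of other cell types in these values was not tested, and in bulk libraries fewer cells of a type and less RNA per cell cannot be told apart. Across the 401 genes silent in cells, the count in an EV library had a Spearman correlation with exon length of 0.144, 0.259 and 0.0919, over genes that share a library.

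Markers of microglia were uneven, and some were plain in both compartments. Cx3cr1, C1qa and Olfml3 were at or near 0 in LPS cells and higher in EVs. At such levels in LPS cells, these genes could be tested in this comparison only through the EV libraries. Csf1r, the receptor that microglia need to survive, was at 1467, 1703 and 1628 CPM in cells and 198, 165 and 344 in EVs (log2 fold change -2.76 ± 0.32 SE, adjusted p = 0.000625). Itgam, the CD11b integrin chain, was at 92.1, 98.8 and 92.2 in cells and 16.4, 17.9 and 8.11 in EVs; it was called lower, but did not pass with all 24 libraries (adjusted p = 0.122) or with the EV counts lowered (adjusted p = 0.104). Tyrobp was at 765 to 803 CPM of library total in cells and at 1060.4, 778 and 1232 in EVs and was not called; it was called higher without the second EV library (0.43, adjusted p = 0.0408) and with the EV counts lowered (0.89, adjusted p = 0.00423). Cx3cr1, the fractalkine receptor of microglia in the brain, was at 0, 0.0349 and 0 CPM in cells and 2.75, 4.64 and 1.27 in EVs. Tmem119 was at 24.9, 31.8 and 33.6 CPM in cells and 5.32, 4.85 and 23.4 in EVs and was not called; without the third EV library it was called lower (log2 fold change -2.57, adjusted p = 0.0057). Of the 19 homeostatic microglia genes at 10 CPM or more in cells, 3 were higher and 5 lower (median 0.11). Near the 25.3% and 15.2% of all tested genes (median 0.13), 7 of all 25 homeostatic genes were higher and 5 lower (median 0.17). C1qa, a chain of the first complement component, was among those that rose (0.0256, 0.155 and 0.0340 against 5.80, 6.38 and 10.9 CPM; log2 fold change 6.70 ± 0.93 SE, adjusted p = 0.000936). Of 26 disease-associated genes 1, Axl, was higher and 11 were lower (median -0.70). All genes at 10 CPM or more in cells had 8.20% higher and 23.4% lower (median -0.41). Olfml3, a homeostatic gene that rose, was at 0.358, 0 and 0.374 CPM in cells and 47.4, 33.7 and 123 in EVs; cells given TGF-β had a mean of 334 CPM.

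Transcript features moved with the ratio among genes at 10 CPM or more in cells. By exon length, the median log2 fold change was -0.19 in the shortest 20% (up to 2600 bases), -0.64, -0.55 and -0.51 in the middle classes of the same size, and -0.11 in the longest 20% (from 7827 bases). In the first EV library the shortest class had a median of 0.01 and the longest -0.53, while in the second they had -0.64 and 0.10, so the libraries order the classes in opposite ways. By GC content of the longest transcript, the median fell in each step, from -0.09 in the 20% of genes with the lowest GC (up to 44.1%) to -0.74 in that with the highest (from 55.3%). Of the former 10.7% were higher and 13.6% lower, and of the latter 4.27% and 32.8%. The 3 EV libraries each had this order at the ends, with medians of -0.27, -0.10 and -0.18 against -0.73, -0.97 and -0.71. The cause of this order was not tested.

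Whether the EV-to-cell ratio after LPS differed from that in the control pair was tested as an interaction in 12 libraries. It was higher after LPS for 1864 of 13263 genes (14.1%) and lower for 271 (2.04%). The former include genes near 0 in all groups but LPS EVs, which could be tested only through those libraries. With limma-voom and quality weights the counts were 22 and 61, and with genes at 10 CPM or more in LPS cells refitted they were 250 and 67. Of 87 ribosomal protein transcripts 0 passed, with a median difference of -0.26, beside 0.23 over all genes. The ratio of Ftl1 did not pass either (log2 difference -0.32 ± 0.79 SE, adjusted p = 0.934), nor did that of Cxcl10 (-1.75 ± 1.41, adjusted p = 0.57). The list of inflammatory genes had 15 of 37 lower and 1 higher, cell cycle genes 11 of 40 lower and 1 higher, and chaperones 8 of 26 lower and 1 higher. For Lcn2, Marco, Saa3, Acod1 and Tnf the ratio was lower after LPS, and all 3 libraries labelled control EVs held more of each transcript than any control cell library held. Saa3 was at 8.53, 7.33 and 7.44 CPM in control cells and 1410.2, 385 and 1471 in control EVs. Gng7 differed in another way: it was at 18.1, 17.3 and 16.9 CPM in control cells and 26.4, 34.8 and 34.4 in control EVs. The IL-10 EV libraries held 0, 4.97 and 0 CPM of library total and the TGF-β EV libraries 0, 34.4 and 13.0, so low values were not confined to LPS EVs. For Csf1r (log2 difference -1.97 ± 0.43 SE, adjusted p = 0.00993) and B2m (-1.53 ± 0.33, adjusted p = 0.00854), the control EVs were closer to their cells than the LPS EVs were to theirs.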

How the data were processed

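Counts of reads per gene were deposited by the authors in tables of 3 treated and 3 control libraries, joined here by row into 24 libraries, the repeated control columns being identical; per the file headers, columns carry a group name and a number. The submitters' processing notes name DESeq2; the build is not given in the sources used here, nor is the aligner. LPS EVs were compared with LPS cells in 6 libraries with edgeR 4.0.16 in R 4.3.3 (quasi-likelihood test with the robust option after TMM scaling and the filterByExpr filter; Benjamini-Hochberg adjusted p over all tested genes, threshold 0.05), and the control pair was added for the interaction. The procedure was tested on simulated data. Alternatives were RLE and library size scaling, limma-voom (limma 3.58.1) with library quality weights, DESeq2 1.42.0, other filters, all 24 libraries in the fit and leaving out each LPS library; refitting genes at 10 CPM or more in LPS cells and lowering EV counts were added after seeing the data. The members and the 49 gene lists were chosen with earlier results of these data known, and no list is independent support. Named genes are the 10 largest rises and falls past the threshold (at least 100 counts on average in the higher group, no overlap, no gene models or repeated symbols), 5 gene models not printed here, the 10 with most counts in each compartment, for each list the members with the lowest adjusted p (at most 4), the 8 largest interaction rises and falls, and a fixed set such as Cd63, Actb and Tnf; of these, only some are printed. Slc40a1, Ftl1-ps1, Arg1, F13a1, Cx3cr1, Tyrobp and the members that rose in a list (Il6, Csf3, Cxcl9, Eef1b2, Eif3a, Eif5, Pabpc1, Snf8, Fdps, Atp6v0d2, Axl) were named after their values were seen. Exon length, GC and class came from GENCODE M21 by symbol for 13267 of 13290 entries, a release that the authors need not have used. Values per library are CPM scaled by TMM within the fit unless said to be of library total, and SE is that of the log2 fold change. No column was left without a group. There are 16 names that are numbers and 6 entries with repeated symbols, which were tested and not named.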

Additional observations from a re-analysis of the deposited data

Results flagged for a closer look

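The following log2 differences are the EV-to-cell ratio after LPS minus that in the control pair, from the same 12 libraries, and each passed the test of the difference (edgeR, adjusted p under 0.05). The ratio was higher after LPS for Sphk1 (16.68), Tmem117 (16.62), Cdh6 (16.5), Fbxl7 (15.92), Adgrb3 (15.84), Nwd2 (15.78), Proser2 (15.78) and Ikzf2 (15.6). These 8 genes had no count in any control EV library, so the sizes depend on the prior count and are no bound. All but Sphk1 were at or near 0 in control and LPS cells too. They could be listed and tested only through the LPS EV libraries, where they are high, so that they passed is no support. Sphk1, which makes the lipid signal sphingosine 1-phosphate, differs from the others in control cells, where it was at 19.7, 17.6 and 18.7 CPM. It was at 0.142, 0.255 and 0.0319 CPM in LPS cells and at 3.75, 7.41 and 5.34 in LPS EVs. Like Arg1 and F13a1, it is a transcript of LPS EVs that LPS cells nearly lacked and control cells had. Tmem119 also had a higher ratio (9.44), again with no count in control EVs, so that its size is no bound.

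The ratio was lower after LPS for Lcn2 (-13.99), Wfdc21 (-10.86), Cfb (-8.03), Gng7 (-7.72), Marco (-7), H2-M2 (-6.88), Saa3 (-6.84) and Hp (-6.55). Wfdc21 and Cfb had no count in control cells, and their sizes are no bound either. Cfb was at 0.499, 0 and 0 CPM in the control EV libraries, so its control ratio rests on 1 library, and it passed narrowly (edgeR, adjusted p = 0.048). It was lower too for Acod1 (-5.96), Tnf (-5.12), Nos2 (-3.04), Ccl5 (-2.89), Csf1r (-1.97), Ctsd (-1.69) and B2m (-1.53). H2-M2 was at 0.684, 0.538 and 0.510 CPM in control cells and 84.3, 12.5 and 39.6 in control EVs, and Hp, haptoglobin, at 1.65, 1.48 and 1.20 against 80.9, 23.6 and 16.1. The part of LPS-response transcripts in the control EV libraries in these differences was not tested.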

How the results depend on the processing

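No paired analysis was possible because the columns carry numbers that the labels do not tie to samples. The count of genes higher in EVs (3320) was 1125 when genes at 10 CPM or more in cells were refitted, 1854 with all 24 libraries and 1059 with the EV counts lowered, and 2324 to 4219 when 1 library was left out. The count of lower genes (1993) was 893, 437 and 3093 in the same order, 465 at more than 4-fold, and 1108 to 3077 with 1 library left out; it was 1108 to 1141 without any 1 cell library and 3077 without the first EV library. Of the calls, 62.5% were higher, 73.7% with library size scaling, 80.9% with all 24 libraries and 25.5% with the EV counts lowered. For the difference from controls, the higher count (1864) was 22 with limma-voom, 711 with at least 50 counts on average and 250 in the refit, and 1507 to 1946 with 1 library left out. The lower count (271) was 154 with library size scaling, 419 with DESeq2, 61 with limma-voom, 131 with at least 50 counts, 67 in the refit, and 86 to 364 with 1 library left out; it was 86, 136 and 134 without each cell library in turn and 146 without the second EV library. The direction turned for Ctsk (0.21), Cd63 (0.55), Cd9 (0.28) and Il6 (-6.83) with the EV counts lowered, for Cd63 (0.24), Cd9 (0.0026) and Slc40a1 (0.0030) in the refit, and for Cd63 with library size scaling (0.053). With 1 library left out the value ran from -0.13 to 0.63 for Saa3, -0.029 to 0.47 for Il1b and -0.050 to 0.65 for Ccl5, lowest without the first EV library and highest without the second; from -0.35 to 0.090 for Cd63, lowest without the first and highest without the second; and from -0.014 to 0.91 for Cst3 and -0.0012 to 0.43 for Tyrobp, lowest with the last EV library left out and highest without the second. With the EV counts lowered, Cd63, Saa3, Il1b, Ccl5 and Tyrobp passed as higher. Il6 passed as lower, which the subtraction fixed, since it left no EV count of Il6. The cause of the other changes was not tested. EV libraries hold fewer counts than cell libraries, so low genes are less certain there, and 3 libraries a group cannot give an exact permutation p below 0.1.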
